A study of Mus musculus with 12 samples.

Results

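The outer wall of the skin is made of dead keratinocytes whose plasma membrane has been replaced by the cornified envelope, a shell of crosslinked protein with lipid bound to its outside. Loricrin, involucrin, the late cornified envelope (LCE) proteins and proteins of the filaggrin family are the building material, and transglutaminases join them. Ceramides with very long acyl chains, which are made by a separate set of enzymes, fill the space between the cells and form the lipid coat. Many of the protein genes lie side by side in the epidermal differentiation complex on mouse chromosome 3.

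The 47 genes described here are 32 named genes of the envelope and of barrier lipid synthesis plus the 15 genes with a symbol that begins with Lce and a probe set of their own on the array. *Flg2* had no such probe set, so 46 were measured, of 18193 genes in all. They fall into 8 groups by role: 3 measured genes of the filaggrin family, 6 other structural proteins, 15 Lce genes, 3 transglutaminases, 4 genes of processing, cell adhesion and calcium binding, 3 of lipoxygenation and lipid transport, 8 of acyl chain and ceramide synthesis, and 4 lipases or their cofactors. Of the 46, 20 lie on chromosome 3 and 26 elsewhere. RefSeq on GRCm38.p6 lists 21 Lce genes, so the Lce1 and Lce3 genes counted below are only those measured.

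RNA of whole skin was measured on 12 arrays, 3 from each of 4 groups of mice: *Ahr*+/- and *Ahr*-/- mice, each untreated (day 0) or on day 2 of imiquimod (IMQ). *Ahr* encodes AhR, the receptor for aryl hydrocarbons, which turns on genes when small molecules bind it, and the null allele is present in every cell, so that no cell type is singled out; the *Ahr*+/- mice, littermates that served as controls, carry 1 working copy. The mice of the treated groups had 30 mg of a cream with 5% IMQ, a ligand of Toll-like receptor 7, put on shaved back skin each day. No group received cream without IMQ, so IMQ, its cream and the handling cannot be told apart. The methods give the knockout line on a mixed B6;129 background, and no age of the mice is given there. Because whole skin was used, fewer cells of a type and less RNA per cell cannot be told apart. Each array is labelled a biological replicate.

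All values are log2 signals, on which a difference of 1 is a doubling. A gene is called higher or lower at an adjusted p under 0.05 in limma, a linear model fitted to all genes, together with a fold change of at least 1.5. The probe set of *Ahr* did not separate the genotypes, with 10.11 to 11.3 in untreated *Ahr*+/- and 11.29 to 11.44 in untreated *Ahr*-/- skin, and if it lies outside the deleted part it checks nothing about the labels. *Cyp1a1*, a target gene of AhR, rose with IMQ in *Ahr*+/- skin by 1.64 (adjusted p = 0.0176 in limma) and differed by -0.04 in *Ahr*-/- skin (adjusted p = 0.953). Keratinocyte markers were high on all arrays, with a mean of 12.24 to 12.85 for the 6 basal genes *Krt5*, *Krt14*, *Krt15*, *Trp63*, *Col17a1* and *Itga6*.

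Several arrays stood apart. Replicate 1 of *Ahr*+/- IMQ departed from replicates 2 and 3: of the 46 genes, 18 (39.1%) were lower there by 1 or more against the mean of these, against 0.863% of all genes, and 1 was higher by as much. It was nearer to the mean of the *Ahr*-/- IMQ arrays than to its own group's other arrays for 32 of the 46 genes (69.6%) and for 37.4% of all genes. Replicates 1 and 2 of *Ahr*-/- IMQ had a 3' over 5' *Gapdh* difference of 1.17 and 1.52, a measure of RNA breakage that ran from 0.14 to 0.53 on the other 10 arrays. Replicate 2 of untreated *Ahr*+/- skin had a mean of 11.84 over 23 genes of growing hair follicles, where the others had 5.67 to 8.05.

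**Figure D1:**
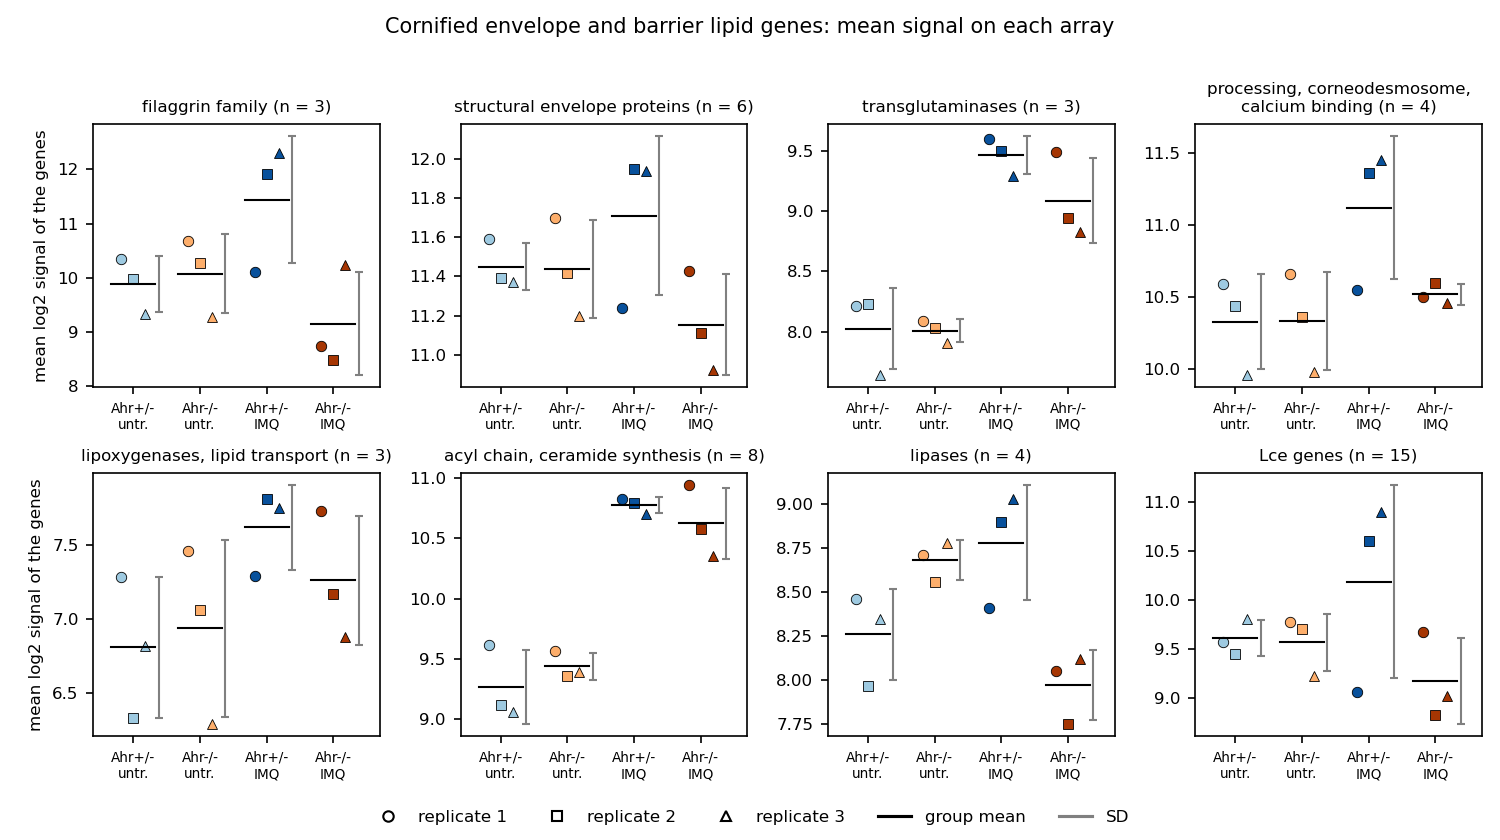
Mean log2 signal of the measured genes of each role on each of the 12 arrays, with 1 panel per role, group means as black lines and SD bars at their side (n = 3 arrays). Acyl chain and ceramide genes sat at 10.35 to 10.94 in both IMQ groups and at 9.06 to 9.62 without treatment, while in the filaggrin family and the Lce genes replicate 1 of Ahr+/- IMQ (10.1 and 9.06) lay far below replicates 2 and 3.

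The start regions of the genes are shown first because members of the complex on chromosome 3 differed from each other in how they moved. Promoters were taken from RefSeq on GRCm38.p6, 250 bases before to 50 after the start that its promoter table gives, for 42 of the 47 genes. Capitals mark matches to a pair of motifs, searched on both strands. The first is TGANTCA, a loose form of the site that AP-1 factors (dimers of Jun and Fos) bind, with any base at N. The usual site has C or G there, while the matches of *Flg*, *Flg2* and *Rptn* have A or T. The second is TATAAA, the TATA box. No match of one shares bases with the other. The bases before the start of 4 structural genes of the complex that hold both motifs are, 5' to 3':
*Flg*: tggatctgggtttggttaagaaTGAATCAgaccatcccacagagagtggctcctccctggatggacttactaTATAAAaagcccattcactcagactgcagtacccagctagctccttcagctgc
*Rptn*: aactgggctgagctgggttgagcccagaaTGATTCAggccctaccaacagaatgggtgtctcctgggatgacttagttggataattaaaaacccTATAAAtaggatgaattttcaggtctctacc
*Lor*: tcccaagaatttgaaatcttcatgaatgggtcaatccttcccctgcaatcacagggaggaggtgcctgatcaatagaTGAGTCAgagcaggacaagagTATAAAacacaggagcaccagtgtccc
*Ivl*: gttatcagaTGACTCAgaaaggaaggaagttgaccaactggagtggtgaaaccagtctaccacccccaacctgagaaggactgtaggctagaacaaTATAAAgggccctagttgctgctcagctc
These are chr3:93273421-93273545 (plus strand) for *Flg*, chr3:93393574-93393698 (plus strand) for *Rptn*, chr3:92083143-92083267 (minus strand) for *Lor* and chr3:92573736-92573860 (minus strand) for *Ivl*. The motif TGANTCA begins at -103, -96, -48 and -116 from the start of *Flg*, *Rptn*, *Lor* and *Ivl*, and TATAAA at -53, -31, -27 and -29. No other gene of the 42 held both. The table's start of *Ivl* lies inside the annotated gene, which reaches position 92573790 on the minus strand, so part of the window shown for *Ivl* is within the gene. The windows of the other 6 genes shown here and next end where the annotated gene begins.

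Windows of 60 bases were taken for the Lce gene that fell most and the pair that rose most with IMQ:
*Lce1m*: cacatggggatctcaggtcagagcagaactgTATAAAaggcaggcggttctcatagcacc
*Lce3a*: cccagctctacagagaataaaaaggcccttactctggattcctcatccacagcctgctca
*Lce3f*: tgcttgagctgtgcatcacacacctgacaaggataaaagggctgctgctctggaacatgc
They lie at chr3:93019062-93019121 (minus strand) (*Lce1m*), chr3:92926231-92926290 (minus strand) (*Lce3a*) and chr3:92992157-92992216 (plus strand) (*Lce3f*). *Lce1m* has TATAAA at -29, and neither Lce3 window holds these letters. TGANTCA was in the promoter of 7 of the 42 genes (16.7%), against 7.9% of all 27025 promoters: besides the 4 above in *Flg2*, *Sbsn* and *Lipn*, and in none of the 10 Lce1, 4 Lce3 or 8 ceramide genes. TATAAA was in 8 of 42 (19.0%) and in 14.2% of all. It was in 2 of the 10 Lce1 promoters, those of *Lce1d* and *Lce1m*, and in 0 of the 4 Lce3 promoters. GCGTG, the core of the element that AhR binds, was searched on both strands and was in 6 of 42 (14.3%) and in 32.5% of all promoters: *Tgm1*, *Cyp4f39*, *Ugcg*, *Lipn*, *Abhd5* and *Lce1c*. These are matches of letters, not sites of binding.

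The first question was what IMQ did to these genes in skin with AhR. In *Ahr*+/- skin 19 of the 46 were called higher and 1 lower, where 5.22% of all genes were higher and 3.83% lower. The median difference was 0.82 over the 46 genes and -0.01 over all genes. The genes were chosen with earlier results of these data known, so setting them beside all genes is not an independent test. All 8 acyl chain and ceramide genes rose, all 4 Lce3 genes rose, and transglutaminases 1 and 3 rose, while *Lce1m* fell. In *Ahr*-/- skin, with its own untreated arrays, 14 were called higher and 12 lower, where 10.6% of all genes were higher and 12.1% lower, and the medians were 0.08 and 0.07. Of the 19 genes called higher in *Ahr*+/- skin, 13 were also called higher in *Ahr*-/- skin and the other 6 were not called there. Of the 12 called lower in *Ahr*-/- skin, 1 was also called lower in *Ahr*+/- skin and 11 were not called there. These counts rest in part on single arrays. Without replicate 2 of *Ahr*+/- IMQ 12 were called higher in *Ahr*+/- skin (3.11% of all genes), without replicate 3 of that group 13 (3.79%), and with the hair follicle mean as a covariate 12 (4.98%). With replicate 3 alone of *Ahr*-/- IMQ, the counts in *Ahr*-/- skin were 9 higher and 4 lower (3.4% and 4.54% of all genes), and with the *Gapdh* difference as a covariate they were 11 and 8 (5.54% and 6.7%). Such counts do not test the difference between the genotypes, which has its own comparisons.

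**Figure D2:**
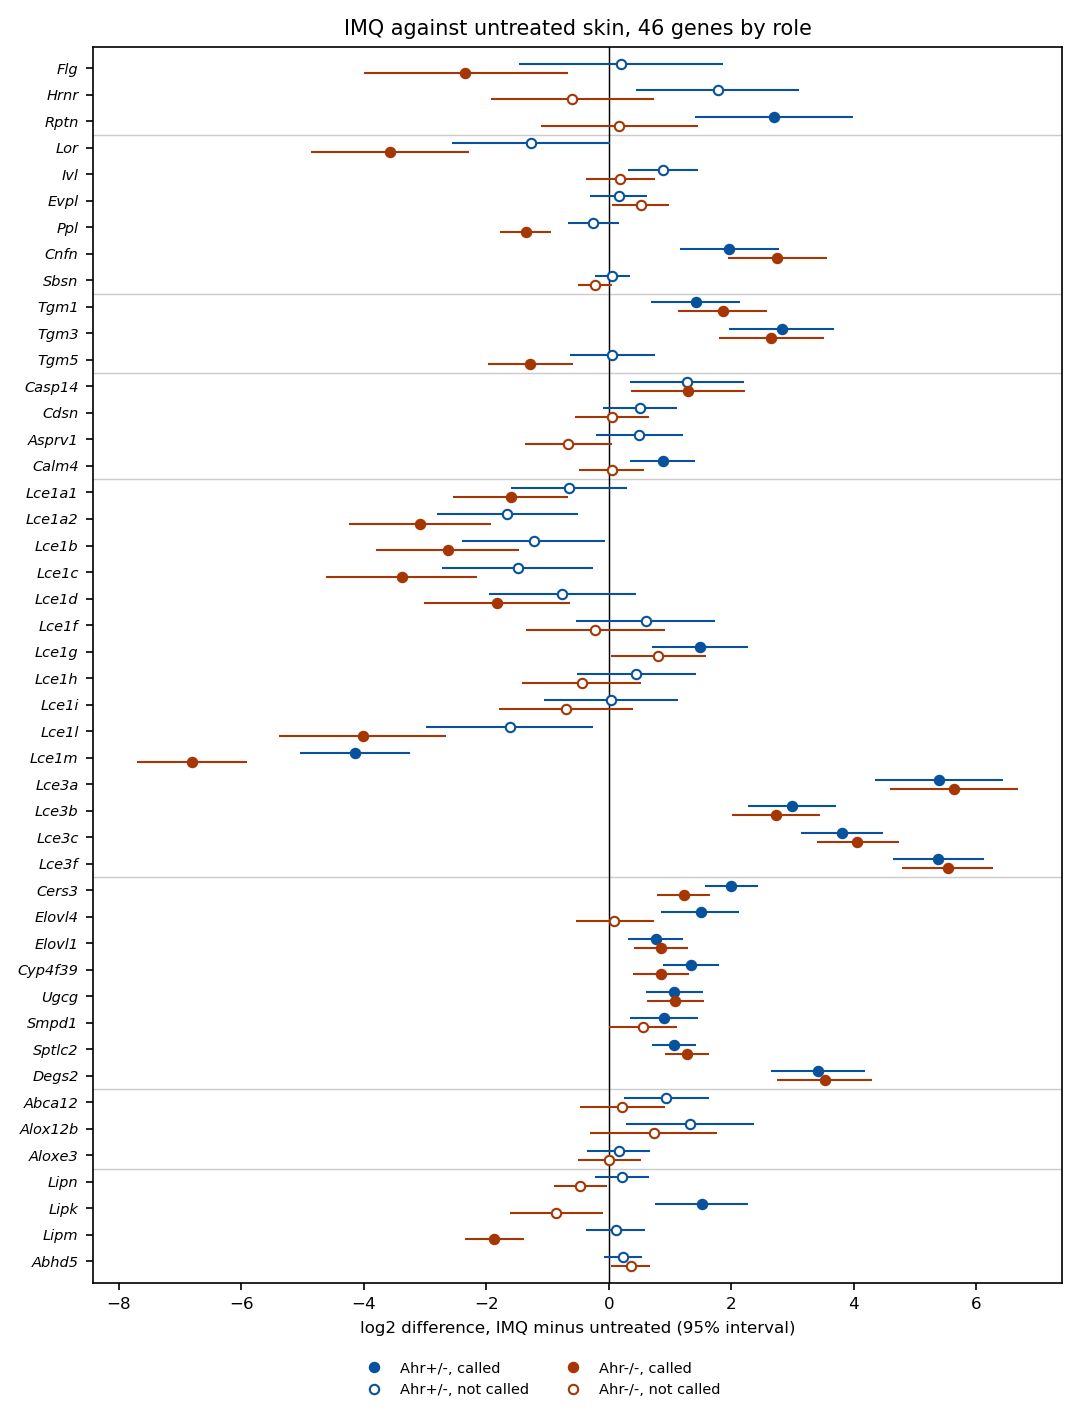
Log2 difference between IMQ and untreated skin for the 46 genes in rows, ordered by role, with 95% intervals from limma in Ahr+/- (blue) and Ahr-/- skin (brown). Filled points passed the test. The Lce3 genes and most ceramide genes lie to the right in both genotypes, with Elovl4 at 0.09 (-0.54 to 0.73) in Ahr-/- skin. Most Lce1 genes lie farther to the left in Ahr-/- skin.

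The LCE proteins are small envelope proteins that are added late. The LCE3 subgroup is known from wounded and psoriatic skin, and the LCE1 subgroup from normal epidermis. *Lce3a* had signals of 4.73, 4.62 and 5.51 in untreated *Ahr*+/- skin and 10.61, 10.03 and 10.38 with IMQ. In *Ahr*-/- skin they were 5.37, 5.12 and 4.83 without and 12.21, 10.26 and 9.76 with IMQ. The groups lay far apart in both genotypes, and replicate 1 of *Ahr*-/- IMQ was the highest of the 12 arrays. The rise was 5.39 (SE 0.48, 41.9-fold, adjusted p = 2.76e-05 in limma) in *Ahr*+/- and 5.64 (SE 0.48, 49.8-fold, adjusted p = 8.31e-06) in *Ahr*-/- skin. The untreated signals of *Lce3a* lay between the 15.2 and 25.6 percentile of all genes on their arrays, where low signals are compressed, so the fold may be understated.

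*Lce3f* rose by 5.38 and 5.54, *Lce3c* by 3.81 and 4.06 and *Lce3b* by 2.99 and 2.73 in *Ahr*+/- and *Ahr*-/- skin, with adjusted p of 0.000179 or below in limma. For the 4 Lce3 genes the groups with and without IMQ did not overlap, and the calls held under each of the 26 alternatives run. Between the genotypes on day 2 they differed by 0.11 to 0.4, and none was called. For *Lce3f* this difference was 0.20 (95% interval -0.54 to 0.95, adjusted p = 0.761 in limma), and for *Lce3a* 0.40 (-0.64 to 1.45, adjusted p = 0.661).

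The 11 Lce1 genes went another way. *Lce1m* read 12.34, 11.71 and 12.59 in untreated and 6.84, 8.59 and 8.78 in IMQ-treated *Ahr*+/- skin. In *Ahr*-/- skin it read 12.61, 12.51 and 11.98 untreated and 5.74, 5.48 and 5.47 with IMQ. All 6 treated arrays lay below all untreated ones, and the 3 *Ahr*-/- arrays below the 3 *Ahr*+/- arrays. The fall was -4.14 (SE 0.41, 17.7-fold, adjusted p = 7.38e-05 in limma) in *Ahr*+/- and -6.81 (SE 0.41, 112-fold, adjusted p = 7.32e-07) in *Ahr*-/- skin. On day 2 the level of *Lce1m* in *Ahr*-/- skin was below that in *Ahr*+/- skin, by -2.51 (SE 0.41, 95% interval -3.41 to -1.61, 5.69-fold, adjusted p = 0.00593 in limma). The responses themselves differed by -2.66 (SE 0.58, adjusted p = 0.0488), which was lost under 18 of 25 alternatives. The day 2 call was lost under 2 of 26, the *Gapdh* difference as a covariate and replicate 3 alone of *Ahr*-/- IMQ. The lowest signal of *Lce1m* lay at the 23.6 percentile of all genes on its array and that of *Lce1l* at the 8.17 percentile, where low signals are compressed, so the folds of both genes may be understated.

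Of the other 10 Lce1 genes, 6 were called lower with IMQ in *Ahr*-/- skin: *Lce1l* by -4.01, *Lce1c* by -3.38, *Lce1a2* by -3.09, *Lce1b* by -2.63, *Lce1d* by -1.83 and *Lce1a1* by -1.60, with adjusted p from 0.00065 to 0.0266 in limma. In *Ahr*+/- skin the same 6 had differences of -1.66 to -0.65 and were not called. Replicate 1 was the lowest of its group for all 11: *Lce1c* read 9.02 there and 11.47 and 11.84 in replicates 2 and 3, beside 12.38, 12.04 and 12.38 without treatment. *Lce1f*, *Lce1h* and *Lce1i* had differences of 0.03 to 0.60 in *Ahr*+/- and -0.70 to -0.22 in *Ahr*-/- skin and were not called. *Lce1g* was called higher in *Ahr*+/- skin by 1.49 (adjusted p = 0.0207), from 3.92, 4.06 and 4.31 to 4.5, 5.91 and 6.35, and its untreated signals lay at or below the 11.8 percentile of all genes on their arrays. Of the 6 falls in *Ahr*-/- skin only that of *Lce1l* kept its call when replicate 3 stood alone for IMQ-treated *Ahr*-/- skin. Several of these sets can read near-identical copies: the sets used for *Lce1a1*, *Lce1d*, *Lce1h*, *Lce1i*, *Lce1m*, *Lce3b* and *Lce3c* are of the types that Affymetrix marks as able to match related sequences, so their assignment to 1 gene is uncertain.

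**Figure D3:**
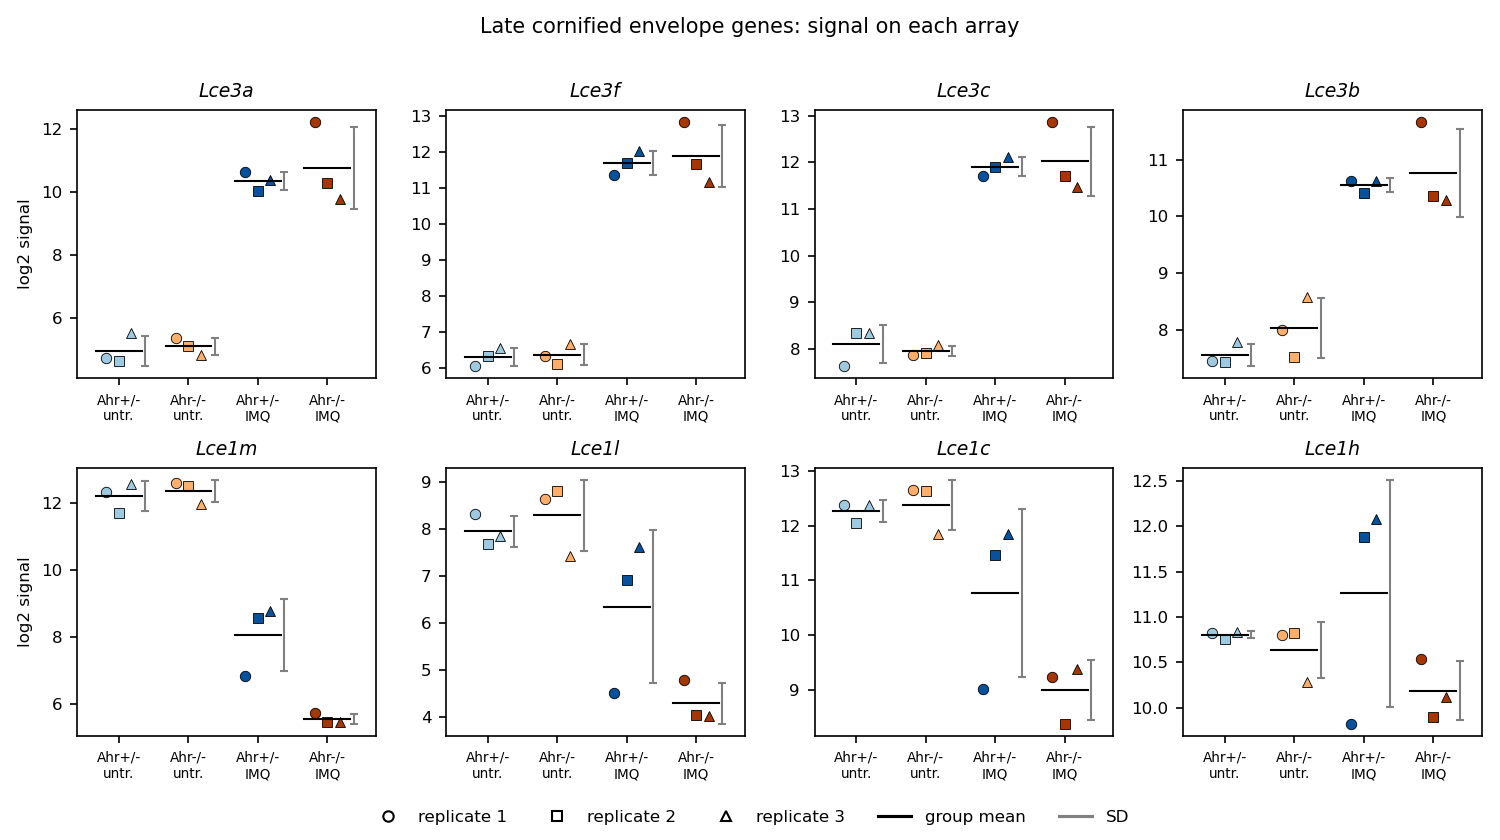
Log2 signal of 4 Lce3 genes (top) and 4 Lce1 genes (bottom) on each array by group, with group means as lines and SD bars (n = 3 arrays). Lce3 genes were high on all 6 IMQ arrays, while for the Lce1 genes replicate 1 of Ahr+/- IMQ lay below replicates 2 and 3, with 9.02 against 11.47 and 11.84 for Lce1c.

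Profilaggrin, the product of *Flg*, bundles keratin filaments and is broken down to the amino acids that hold water in the horny layer. *Flg* read 10.49, 11.41 and 10.15 in untreated and 9.32, 11.51 and 11.83 in IMQ-treated *Ahr*+/- skin, which overlap. It read 10.83, 10.83 and 8.99 in untreated and 6.83, 7.35 and 9.46 in IMQ-treated *Ahr*-/- skin. Here replicates 1 and 2 were low and replicate 3 was within the untreated range. The IMQ difference was 0.20 (SE 0.77, adjusted p = 0.912 in limma) in *Ahr*+/- and -2.34 (SE 0.77, adjusted p = 0.0382) in *Ahr*-/- skin. On day 2 *Flg* was lower in *Ahr*-/- skin by -3.01 (SE 0.77, 8.04-fold, adjusted p = 0.0475), but the groups overlapped, and 16 of 26 alternatives lost the call. It was -3.79 without replicate 1 of *Ahr*+/- IMQ, which was set apart above by its low values of these genes, so leaving it out widens the gap. The call was lost without replicate 2 or without replicate 3 of that group. The low replicates 1 and 2 of *Ahr*-/- IMQ are the ones with the high *Gapdh* difference; with replicate 3 alone of that group, the IMQ difference in *Ahr*-/- skin lost its call.

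Repetin (*Rptn*) and hornerin (*Hrnr*) are relatives of filaggrin in the same complex. *Rptn* read 10.19, 8.21 and 7.83 in untreated and 10.44, 11.60 and 12.27 in IMQ-treated *Ahr*+/- skin, and 10.36, 9.81 and 8.93, then 9.60, 9.63 and 10.39, in *Ahr*-/- skin. It rose in *Ahr*+/- skin by 2.69 (SE 0.59, 6.46-fold, adjusted p = 0.0134 in limma), a call lost without replicate 3 of untreated or without replicate 2 or 3 of IMQ-treated *Ahr*+/- skin, and the difference in *Ahr*-/- skin was 0.17 (adjusted p = 0.857). The gap between these responses was -2.52 (95% interval -4.34 to -0.70, adjusted p = 0.150) and was not called. *Hrnr* reached 12.62 and 12.83 in replicates 2 and 3 of *Ahr*+/- IMQ and 10.53 in replicate 1. Its differences were 1.78 (adjusted p = 0.0896 in limma) and -0.60 (adjusted p = 0.511), and on day 2 it was -2.29 between the genotypes (adjusted p = 0.0579). It was -3.02 without replicate 1 of *Ahr*+/- IMQ, the array with low values of these genes, so leaving it out widens the gap. *Hrnr* was not called without replicate 2 or without replicate 3 of that group.

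Loricrin (*Lor*) is the chief protein of the envelope by mass. *Lor* read 14.16, 13.19 and 13.89 in untreated and 10.71, 13.40 and 13.33 in IMQ-treated *Ahr*+/- skin. In *Ahr*-/- skin it read 14.31, 14.16 and 13.13 untreated and 10.29, 9.91 and 10.65 with IMQ. The 3 treated *Ahr*-/- arrays lay below all others, with replicate 1 of *Ahr*+/- IMQ next to them. *Lor* fell in *Ahr*-/- skin by -3.58 (SE 0.59, 12-fold, adjusted p = 0.000913 in limma), a call that was lost only with replicate 3 alone of *Ahr*-/- IMQ. In *Ahr*+/- skin its difference was -1.27 (SE 0.59, adjusted p = 0.207), and on day 2 it was -2.20 between the genotypes (SE 0.59, adjusted p = 0.0594). Another probe set of *Lor* had a mean signal of 12.3, beside 12.59 for the set used. It gave -3.14 with IMQ in *Ahr*-/- skin (adjusted p = 0.000686 in limma over all probe sets). Between the genotypes on day 2 it gave -1.91 (adjusted p = 0.0495), and the set used had an adjusted p of 0.0744 there. A dim set, with a mean signal of 6.15, gave -0.57 (adjusted p = 0.258) and -0.45 (adjusted p = 0.486), in this order. Without replicate 1 of *Ahr*+/- IMQ the day 2 difference of the set used was -3.08. That array was set apart above by its low values of these genes, so leaving it out widens the gap. With the set used, *Lor* was not called without replicate 2 or without replicate 3 of that group.

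Involucrin (*Ivl*) is laid down early and carries the lipid coat. *Ivl* read 10.79, 10.81 and 10.96 in untreated and 11.17, 12.13 and 11.89 in IMQ-treated *Ahr*+/- skin, and 10.83, 10.59 and 11.00, then 11.43, 11.06 and 10.48, in *Ahr*-/- skin. The treated *Ahr*+/- arrays were above the untreated ones, by 0.88 (SE 0.26, adjusted p = 0.0524 in limma), which was not called. A second probe set of *Ivl* differed, with 1.27 (adjusted p = 0.00841 over all probe sets) in *Ahr*+/- skin and -1.42 (adjusted p = 0.013) between the genotypes on day 2, where the set used gave -0.74. Cornifelin (*Cnfn*), a small envelope protein, read 8.67, 9.06 and 7.92 untreated and 10.53, 10.47 and 10.56 with IMQ in *Ahr*+/- skin, and 8.82, 8.08 and 7.72, then 11.66, 11.00 and 10.20, in *Ahr*-/- skin. It rose in both, by 1.97 (SE 0.37, adjusted p = 0.00598) and 2.75 (SE 0.37, adjusted p = 0.000242).

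Periplakin (*Ppl*) and envoplakin (*Evpl*) tie the envelope to keratin filaments and desmosomes. *Ppl* read 11.21, 10.95 and 11.05 in untreated and 10.54, 10.90 and 10.99 in IMQ-treated *Ahr*+/- skin, and 11.36, 11.18 and 10.99, then 10.08, 9.42 and 9.97, in *Ahr*-/- skin. The 3 treated *Ahr*-/- arrays were the lowest of the 12. *Ppl* fell in *Ahr*-/- skin by -1.36 (SE 0.19, adjusted p = 0.000319 in limma) under each of the 26 alternatives, and was -0.26 in *Ahr*+/- skin (adjusted p = 0.454). On day 2 it was lower in *Ahr*-/- skin by -0.99 (SE 0.19, 1.99-fold, adjusted p = 0.0138), lost under 6 of 26 alternatives, among them those without replicate 2 or 3 of *Ahr*+/- IMQ or replicate 2 of *Ahr*-/- IMQ. *Evpl*, its partner, differed by 0.16 and 0.52 with IMQ and was not called. Suprabasin (*Sbsn*) read 14.03 to 14.49 on all arrays, close to the highest signal of 14.98, where differences may be compressed. A dimmer probe set of *Sbsn*, with a mean signal of 12.31, fell with IMQ in *Ahr*-/- skin by -0.93 (adjusted p = 0.0137 in limma over all probe sets). Its difference in *Ahr*+/- skin was -0.27 (adjusted p = 0.541), where the set used gave -0.22 in *Ahr*-/- and 0.06 in *Ahr*+/- skin.

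Transglutaminases 1, 3 and 5 crosslink the envelope. *Tgm1* read 8.59, 9.30 and 7.99 in untreated and 10.14, 10.03 and 9.98 in IMQ-treated *Ahr*+/- skin, and 8.81, 8.61 and 7.95, then 10.84, 10.37 and 9.73, in *Ahr*-/- skin. *Tgm3* read 6.24, 7.32 and 6.13, then 10.10, 9.26 and 8.82, in *Ahr*+/- and 5.92, 6.06 and 6.31, then 9.48, 8.15 and 8.63, in *Ahr*-/- skin. Every treated array was above every untreated one for both genes. *Tgm1* rose by 1.42 (SE 0.34, adjusted p = 0.0187 in limma) and 1.86 (SE 0.34, adjusted p = 0.0016), and *Tgm3* by 2.83 (SE 0.39, 7.11-fold, adjusted p = 0.000884) and 2.65 (SE 0.39, 6.3-fold, adjusted p = 0.000455) in *Ahr*+/- and *Ahr*-/- skin. A second probe set of *Tgm3*, with a mean signal of 6.66 beside 7.7 for the set used, differed by far less. It gave 0.51 (adjusted p = 0.129 in limma over all probe sets) and 0.60 (adjusted p = 0.0463). The rise of *Tgm1* in *Ahr*+/- skin was lost without untreated replicate 3 or IMQ replicate 1 or 2, and that in *Ahr*-/- skin with replicate 3 alone of the treated group. The highest untreated value of both, 9.30 and 7.32, was on the array with the high hair follicle mean, and *Tgm3* is also known from the hair follicle. *Tgm5* fell in *Ahr*-/- skin by -1.28 (adjusted p = 0.0111) and was 0.06 in *Ahr*+/- skin (adjusted p = 0.943). The fall of *Tgm5* was lost under 3 of 26 alternatives, among them the *Gapdh* difference as a covariate (adjusted p = 0.0751) and replicate 3 alone of *Ahr*-/- IMQ (adjusted p = 0.148).

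Caspase-14 (*Casp14*) cuts profilaggrin. *Casp14* read 7.2, 8.31 and 6.14 in untreated and 8.17, 8.55 and 8.76 in IMQ-treated *Ahr*+/- skin, and 6.93, 6.76 and 5.93, then 8.06, 7.78 and 7.64, in *Ahr*-/- skin. The differences were nearly equal, 1.27 (SE 0.43, adjusted p = 0.0811 in limma) and 1.29 (SE 0.43, adjusted p = 0.0407), and the second alone was called. It lost its call under 13 of 26 alternatives. A second probe set of *Casp14*, with a mean signal of 7.05 beside 7.52 for the set used, did not show the rise. It gave -0.24 (adjusted p = 0.546 in limma over all probe sets) in *Ahr*+/- and 0.06 (adjusted p = 0.876) in *Ahr*-/- skin. *Calm4*, a calmodulin-like protein of the epidermis, read 12.86, 12.64 and 12.88, then 12.92, 13.99 and 14.10, in *Ahr*+/- and 13.00, 12.91 and 12.86, then 12.97, 12.90 and 13.05, in *Ahr*-/- skin. Its rise of 0.88 in *Ahr*+/- skin (SE 0.24, adjusted p = 0.041) came from replicates 2 and 3 and was lost under 17 of 26 alternatives. The filaggrin protease *Asprv1* and the corneodesmosome gene *Cdsn* were not called in any comparison with all 12 arrays.

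Ceramide synthesis begins with serine palmitoyltransferase, of which *Sptlc2* is a subunit; *Elovl1* and *Elovl4* lengthen the acyl chain, *Cyp4f39* adds its terminal hydroxyl group, *Cers3* joins chain and base, and *Degs2* makes the phytoceramide base. *Ugcg* and *Smpd1* act on the glucosylceramide and sphingomyelin from which ceramides are released. All 8 rose in *Ahr*+/- skin, with differences of 0.77 to 3.41 and a median of 1.21, and 6 of 8 rose in *Ahr*-/- skin, with a median of 0.97. On day 2 none of the 8 was called between the genotypes.

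*Cers3* read 8.78, 8.93 and 8.47 in untreated and 10.92, 10.60 and 10.65 in IMQ-treated *Ahr*+/- skin. It read 9.17, 9.06 and 8.92 untreated and 10.73, 10.02 and 10.06 with IMQ in *Ahr*-/- skin. All treated arrays were above all untreated ones, and the rise was 2.00 (SE 0.20, 3.99-fold, adjusted p = 7.14e-05 in limma) and 1.22 (SE 0.20, 2.32-fold, adjusted p = 0.000818). The gap between these rises, -0.78 (95% interval -1.39 to -0.17, adjusted p = 0.178), was not called.

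*Degs2* read 6.69, 5.77 and 4.99, then 9.69, 9.12 and 8.87 with IMQ, in *Ahr*+/- and 6.32, 6.13 and 5.96, then 9.95, 9.81 and 9.23, in *Ahr*-/- skin. The treated arrays lay well above the untreated ones in both genotypes. Its rises of 3.41 (SE 0.36, 10.6-fold, adjusted p = 0.000112 in limma) and 3.53 (SE 0.36, 11.5-fold, adjusted p = 3.03e-05) were the largest of the 8. *Sptlc2* rose by 1.07 and 1.28, *Ugcg* by 1.07 and 1.08, *Cyp4f39* by 1.34 and 0.85 and *Elovl1* by 0.77 and 0.85, with adjusted p of 0.0333 or below in both genotypes. The rise of *Elovl1* in *Ahr*+/- skin was lost under 10 of 26 alternatives. Its other probe sets rose there by 1.11, 1.43 and 0.86 (adjusted p of 0.0184 or below in limma over all probe sets). In *Ahr*-/- skin the same sets gave 0.39 (adjusted p = 0.18), 0.96 (adjusted p = 0.0187) and 0.77 (adjusted p = 0.0158). The *Ahr*-/- rises of *Elovl1* and *Cyp4f39* were lost with the *Gapdh* difference as a covariate (0.47 and 0.49) and with replicate 3 alone of the IMQ group (0.41 and 0.38), and that of *Ugcg* with replicate 3 alone (adjusted p = 0.0698). *Elovl4* rose in *Ahr*+/- skin by 1.5 (adjusted p = 0.00708) and was 0.09 in *Ahr*-/- skin (adjusted p = 0.841); the gap of -1.40 (95% interval -2.29 to -0.51, adjusted p = 0.11) was not called. *Smpd1* rose by 0.90 in *Ahr*+/- skin (adjusted p = 0.0426), lost under 11 of 26 alternatives, and was 0.56 in *Ahr*-/- skin (adjusted p = 0.12). A second probe set of *Smpd1*, with a mean signal of 7.36 beside 10.49 for the set used, differed in which rise passed. It gave 0.54 (adjusted p = 0.0755 in limma over all probe sets) in *Ahr*+/- and 0.61 (adjusted p = 0.0255) in *Ahr*-/- skin. With the hair follicle mean as a covariate 4 of the 8 rises in *Ahr*+/- skin lost their call, those of *Elovl4*, *Elovl1*, *Ugcg* and *Smpd1*, and the mean of all probe sets gave 0.37 (adjusted p = 0.106) for *Sptlc2*.

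**Figure D4:**
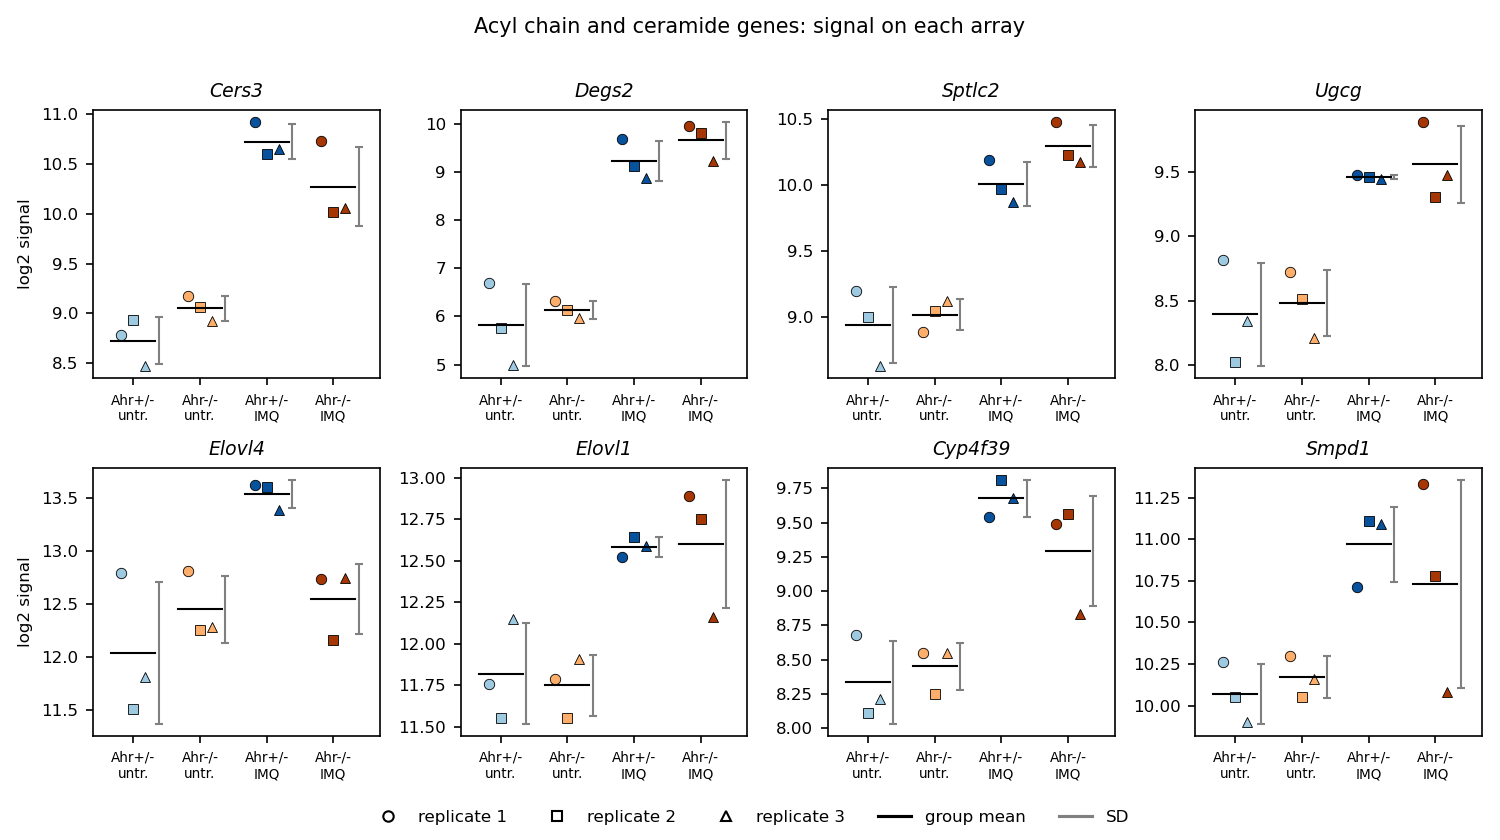
Log2 signal of the 8 acyl chain and ceramide genes on each array by group, with group means as lines and SD bars (n = 3 arrays). Cers3, Degs2 and Sptlc2 were higher on all 6 IMQ arrays than on all 6 untreated arrays, and Elovl4 was at 13.38 to 13.62 in IMQ-treated Ahr+/- skin and at 12.16 to 12.74 in IMQ-treated Ahr-/- skin.

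Lipid transport and lipoxygenation were not called in either genotype. *Abca12*, which loads lipid into lamellar granules, read 6.84, 6.46 and 6.81 in untreated and 7.31, 7.81 and 7.80 in IMQ-treated *Ahr*+/- skin, and 7.16, 7.09 and 5.68, then 7.0, 6.82 and 6.77, in *Ahr*-/- skin. The treated *Ahr*+/- arrays were the highest, by 0.93 (SE 0.32, adjusted p = 0.087 in limma), and the difference in *Ahr*-/- skin was 0.22 (adjusted p = 0.649). The lipoxygenases *Alox12b* and *Aloxe3*, which oxidize the ceramide so that it can be bound to the envelope, differed by 1.33 (adjusted p = 0.103) and 0.16 (adjusted p = 0.75) in *Ahr*+/- skin.

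*Lipk* and *Lipm* belong to a cluster of acid lipase genes that is read in differentiating keratinocytes. *Lipm* read 10.31, 10.18 and 10.17 in untreated and 9.90, 10.41 and 10.67 in IMQ-treated *Ahr*+/- skin, and 10.90, 10.75 and 10.44, then 8.93, 8.41 and 9.16, in *Ahr*-/- skin. The 3 treated *Ahr*-/- arrays were the lowest of the 12. *Lipm* fell there by -1.87 (SE 0.22, 3.65-fold, adjusted p = 0.000105 in limma) and was 0.11 in *Ahr*+/- skin (adjusted p = 0.835). On day 2 it was lower in *Ahr*-/- skin by -1.49 (SE 0.22, 2.82-fold, adjusted p = 0.00337 in limma). That call was lost under 2 of 26 alternatives, among them the *Gapdh* difference as a covariate. The responses differed by -1.97 (SE 0.32, adjusted p = 0.0154), a call lost under 6 of 25 alternatives. Among these were the *Gapdh* and hair follicle covariates and the fits without replicate 1 of untreated *Ahr*-/- or replicate 2 of IMQ-treated *Ahr*+/- skin.

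*Lipk* read 7.10, 6.04 and 6.48 in untreated and 7.25, 8.46 and 8.47 in IMQ-treated *Ahr*+/- skin, and 7.56, 7.17 and 7.98, then 6.93, 6.34 and 6.87, in *Ahr*-/- skin. The arrays moved up with IMQ in one genotype and down in the other without overlap. It rose by 1.52 (SE 0.35, adjusted p = 0.017 in limma) in *Ahr*+/- skin, its difference in *Ahr*-/- skin was -0.86 (adjusted p = 0.0885), and the responses differed by -2.38 (SE 0.50, adjusted p = 0.0401). That difference was lost under 14 of 25 alternatives and the rise under 6 of 26. The third lipase, *Lipn*, and *Abhd5*, a cofactor of lipases, were not called. A second probe set of *Abhd5*, with a mean signal of 9.48 beside 9.57 for the set used, gave rises of 1.22 (adjusted p = 0.000803 over all probe sets) and 1.02 (adjusted p = 0.000818) where the set used gave 0.23 and 0.36, so both sets of this gene disagree.

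On day 2, when *Ahr*-/- and *Ahr*+/- skin were compared directly, 4 of the 46 genes were called lower in *Ahr*-/- skin and 0 higher, where 1.86% of all genes were lower and 2.12% higher. The 4 were *Flg*, *Ppl*, *Lipm* and *Lce1m*. The median difference was -0.72 over the 46 genes and 0.06 over all genes, and it was -1.46 over the 11 Lce1, 0.21 over the 4 Lce3 and -0.11 over the 8 ceramide genes. At an unadjusted p under 0.05, 24 of the 46 were lower and 0 higher, where 1891 of the 18193 genes were lower and 1937 higher. The share called turned on replicate 1 of *Ahr*+/- IMQ. Without it 20 of 46 were lower (43.5%), beside 2.21% of all genes. The 16 added were *Hrnr*, *Lor*, *Ivl*, *Asprv1*, *Calm4*, *Lipk* and the other 10 Lce1 genes. Without replicate 2 or without replicate 3 of the same group 2 were lower, beside 0.319% and 0.313% of all genes. Replicate 1 was set apart by its low values of these same genes, so the fit without it does not test the difference.

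**Figure D5:**
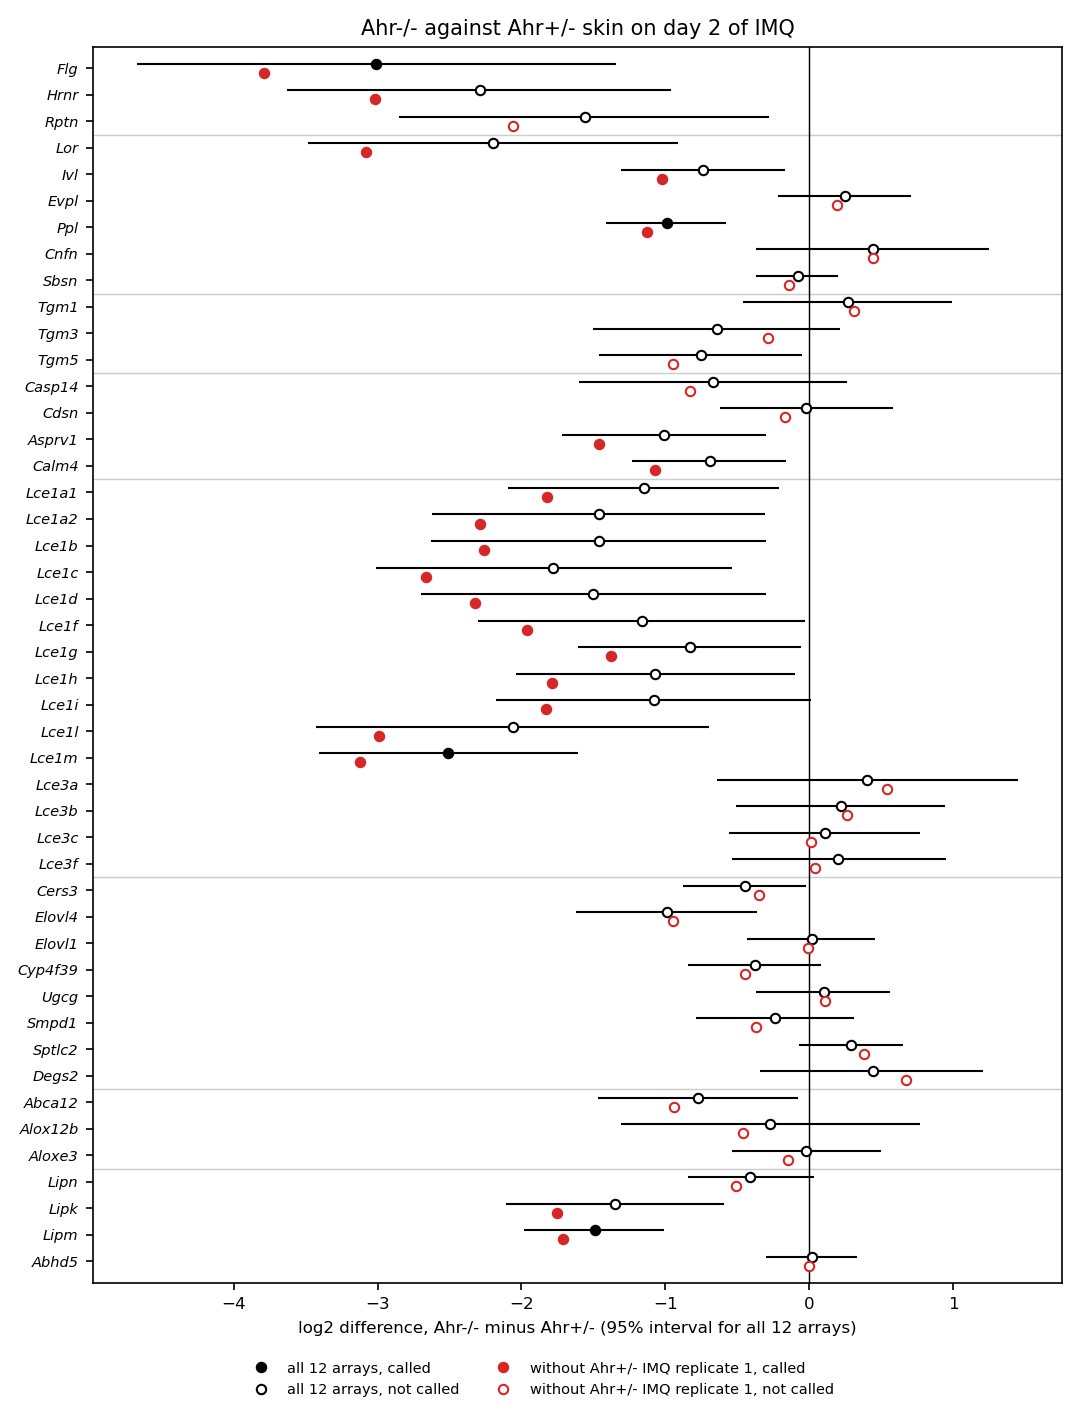
Log2 difference between Ahr-/- and Ahr+/- skin on day 2 of IMQ for the 46 genes in rows, ordered by role, from all 12 arrays with 95% intervals (black) and without replicate 1 of Ahr+/- IMQ (red), with filled points for genes that passed the test. Without that array the Lce1 genes, Lor, Flg and Hrnr move left, with Lce1l at -2.99 in place of -2.06, and Lce3f is at 0.04 in place of 0.20.

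The RNA quality measure also moved with the genotype on day 2. With the *Gapdh* difference as a covariate 0 of the 46 were called on day 2, beside 0.148% of all genes higher and 0% lower, and with replicate 3 alone of *Ahr*-/- IMQ 0 were called, beside 0.198% and 0.0385%. Its part in the result was not tested. Replicate 3 of *Ahr*-/- IMQ, with a *Gapdh* difference of 0.28, read 10.65 for *Lor*, 5.47 for *Lce1m* and 9.16 for *Lipm*, below all 3 *Ahr*+/- IMQ arrays, of which the lowest read 10.71, 6.84 and 9.90. It read 9.38 for *Lce1c*, 9.46 for *Flg* and 10.89 for *Hrnr*, between replicate 1 (9.02, 9.32 and 10.53) and the other *Ahr*+/- IMQ arrays.

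Cell markers moved beside these genes. Among 5 suprabasal keratinocyte markers, 3 were called lower on day 2 in skin without AhR. *Krt10*, which fills the spinous and granular layers where the envelope is made, read 12.32, 14.33 and 14.46 in *Ahr*+/- and 10.74, 10.64 and 11.59 in *Ahr*-/- skin with IMQ. Replicate 1 of *Ahr*+/- IMQ was again the lowest of its group, and the mean of the 5 markers, of which *Krt2* read 2.88 to 4.13 on all arrays, was 10.26 there, 11.14 and 11.33 in replicates 2 and 3, and 9.11 to 9.86 in *Ahr*-/- skin. The mean of 9 neutrophil markers was 7.0, 6.54 and 6.48 in *Ahr*+/- and 7.95 to 8.21 in *Ahr*-/- skin with IMQ, and 4 of the 9 were called higher on day 2. With IMQ, 3 of 5 sebaceous gland genes were called higher in *Ahr*+/- skin, *Elovl3* by 3.83, *Far2* by 2.21 and *Cidea* by 1.42, and their group mean was 8.46 to 9.19 untreated and 10.02 to 10.27 with IMQ. Of the same 5 in *Ahr*-/- skin, 1 was called higher and 1 lower, and the mean was 8.44 to 9.59 untreated and 8.9 to 9.38 with IMQ. On day 2, 1 of the 5 was called lower in *Ahr*-/- skin, *Far2* by -1.67. Of the 6 basal keratinocyte genes, 3 were called higher in *Ahr*+/- skin, *Krt14* by 1.49, *Itga6* by 1.01 and *Krt5* by 0.70, and 1 lower, *Krt15* by -1.57, and in *Ahr*-/- skin 2 were called higher and 1 lower. Of all genes, 5.22% were higher and 3.83% lower with IMQ in *Ahr*+/- skin, and 10.6% and 12.1% in *Ahr*-/- skin. On day 2 the shares were 2.12% higher and 1.86% lower. Among the neutrophil markers, *Mpo* read 4.21 to 5.04 and *Elane* 4.74 to 5.62 on all arrays. The calls of the markers were not followed under the alternatives. The part of these markers in the results for the envelope genes was not tested.

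In untreated skin 0 of the 46 genes were called between the genotypes in limma, where 0.0055% of all genes were higher and 0% lower. The differences ran from -0.68 for *Casp14* to 1.03 for *Lipk*, with a median of 0.09 beside 0.02 for all genes. At an unadjusted p under 0.05 only *Lipk* passed. Its untreated groups did not overlap, with 6.04 to 7.10 in *Ahr*+/- and 7.17 to 7.98 in *Ahr*-/- skin (adjusted p = 0.719).

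The difference of the IMQ responses was called for 3 of the 46 genes, all lower in *Ahr*-/- skin: *Lce1m*, *Lipk* and *Lipm*. Of all genes 0.786% were lower and 0.539% higher. The median was -0.70 over the 46 genes and 0.05 over all genes. The lowest values outside these were -2.54 for *Flg* (adjusted p = 0.247), -2.52 for *Rptn* (adjusted p = 0.15), -2.40 for *Lce1l* (adjusted p = 0.189) and -2.38 for *Hrnr* (adjusted p = 0.184 in limma), and none was called. At an unadjusted p under 0.05, 16 of the 46 were lower and 0 higher, where 1822 of the 18193 genes were lower and 1363 higher. Without replicate 1 of *Ahr*+/- IMQ 14 were called, beside 1.42% of all genes, and without replicate 2 of that group 0 were, beside 0.0605%.

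A further 30 genes of the barrier, measured from a list of 32, were counted beside these. That list too was chosen with earlier results of these data known. With IMQ 11 of the 30 were called higher and 2 lower in *Ahr*+/- skin and 5 higher and 5 lower in *Ahr*-/- skin, beside 5.22% and 3.83% of all genes in *Ahr*+/- and 10.6% and 12.1% in *Ahr*-/- skin. Those with the largest differences in *Ahr*+/- skin were *Elovl7*, a chain elongase, by 1.72, *Cers4*, a ceramide synthase, by 1.65, *Blmh*, the hydrolase that breaks down filaggrin peptides, by 1.52, and *Sdr9c7*, which acts on the linoleate of the lipid coat, by 1.47 (adjusted p of 0.00768 or below in limma). In *Ahr*-/- skin they were *Scel*, for the envelope precursor sciellin, by -2.63, *Blmh* by 1.90, the alkaline ceramidase *Acer1* by -1.15 and *Elovl6*, an elongase of shorter chains, by -1.13 (adjusted p of 0.00342 or below). The *Ahr*-/- calls of *Acer1* and *Elovl6* were lost with replicate 3 alone of the IMQ group. On day 2, 5 were lower and 1 higher in *Ahr*-/- skin (1.86% and 2.12% of all genes), with *Elovl6* at -1.54, *Scel* at -1.23, *Cers4* at -1.18 and *Acer1* at -1.16 (adjusted p of 0.0138 or below). These 4 calls were lost with the *Gapdh* difference as a covariate (adjusted p of 0.123 or above) and with replicate 3 alone of *Ahr*-/- IMQ (adjusted p of 0.0747 or above). The responses differed for *Scel* by -1.49 (adjusted p = 0.0346) and for *Acer1* by -1.46 (adjusted p = 0.0478), where 0.786% of all genes were lower, and these calls were lost under 15 and 17 of 25 alternatives.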

How the data were processed

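Total RNA of whole skin was hybridised to GeneChip Mouse Genome 430 2.0 arrays. The deposited values are log2 signals that the authors normalised by RMA with the affy package of R, version not given. From 45101 probe sets, 64 controls, 932 annotated to several genes and 9160 without a symbol were left out. For each of 18193 genes the brightest set on average was taken; 15 of the 46 genes have several sets and 10 are read by sets that can match related sequences.

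Group means were fitted with limma 3.58.1 in R 4.3.3 over all 4 groups (8 residual and 4.44 prior degrees of freedom), p-values were adjusted by Benjamini-Hochberg over all genes, and a call was made where the adjusted p was under 0.05 and the change at least 1.5-fold. The steps were tested on simulated data. The rank product test of the study's methods was not run. The difference of the IMQ responses is an interaction term. All 4 comparisons of group pairs share arrays with others. Array medians ran from 7.38 to 7.56, and the number of arrays limits the precision. No scan or slide batch is known here. The named genes are all members, with values on each array for *Flg*, *Lor*, *Ivl*, *Tgm1*, *Casp14*, *Abca12*, *Cers3* and those with the largest changes in each role group. The members and lists were chosen with earlier results of these data known. Alternatives covered scaling, probe set choice, filters, thresholds, the variance model, array weights, a replicate block, RNA quality and hair covariates, and leaving out each array. Tables were made with Python 3.11.15, pandas 2.3.3 and numpy 2.4.6, figures with matplotlib 3.10.9.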

Additional observations from a re-analysis of the deposited data

Results flagged for a closer look

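The response to IMQ differed between *Ahr*-/- and *Ahr*+/- skin by the interaction test of limma for 3 genes of the envelope and its lipids and for 2 further barrier genes, all with lower values in *Ahr*-/- skin. The difference was -2.66 for *Lce1m* (adjusted p = 0.0488), -2.38 for *Lipk* (adjusted p = 0.0401), -1.97 for *Lipm* (adjusted p = 0.0154), -1.49 for *Scel* (adjusted p = 0.0346) and -1.46 for *Acer1* (adjusted p = 0.0478). These calls were lost under 18, 14, 6, 15 and 17 of 25 alternatives, in this order, and each was lost with the *Gapdh* difference as a covariate and with replicate 3 alone of *Ahr*-/- IMQ.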

How the results depend on the processing

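Of 53 called values of the 46 genes, 23 kept their call under every alternative (10 of 20 in *Ahr*+/- skin, 13 of 26 in *Ahr*-/- skin, 0 of 4 on day 2 and 0 of 3 for the difference of the responses), and none changed sign. Counts higher on day 2, in untreated skin in either direction, and higher for the difference were 0 under all alternatives run. Against 19 higher and 1 lower in *Ahr*+/- skin, an adjusted p under 0.01, which calls fewer of all genes too, gave 12 higher. The hair covariate gave 12 higher and 2 lower (4.98% and 5.42% of all genes). Against 14 higher and 12 lower in *Ahr*-/- skin, replicate 3 alone of *Ahr*-/- IMQ gave 9 and 4. Against 4 lower on day 2, an adjusted p under 0.01 gave 2, array weights 19 (5.62% of all genes), fitting only the pair of groups compared 7, the hair covariate 12 (3.96%), and the *Gapdh* covariate or replicate 3 alone of *Ahr*-/- IMQ 0. Against 3 lower for the difference, all probe sets tested gave 1, array weights 13 (6.41% of all genes), and an adjusted p under 0.01, the hair covariate, the *Gapdh* covariate or replicate 3 alone 0. The cause was not tested. Leaving out each array gave 12 to 21 higher and 1 to 3 lower in *Ahr*+/- skin, 13 to 15 and 9 to 14 in *Ahr*-/- skin, 2 to 20 lower on day 2 and 0 to 14 lower for the difference. The highest of these for day 2 and for the difference, 20 and 14 (2.21% and 1.42% of all genes), were without replicate 1 of *Ahr*+/- IMQ. Without replicate 2 or 3 of *Ahr*+/- IMQ day 2 had 2 (0.319% and 0.313%), and without replicate 2 of *Ahr*-/- IMQ also 2. Without replicate 2 of untreated *Ahr*+/- skin it had 8. The share of all genes called moves between alternatives too. Counts given here or below without that share do not show a change particular to these genes. In the fits with 1 array in a group, that array is assumed to vary like the others.

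The replicate number as a block gave 18 higher and 1 lower, 14 and 12, 4 lower on day 2 and 2 lower for the difference. Same-numbered arrays had correlations of their deviations from group means of -0.18 to 0.32 over 12 pairs of arrays, so the numbers were not taken to pair the mice.

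A total of 8 values that were not called changed sign. In *Ahr*-/- skin, *Abca12* was -0.13 with array weights and -0.26 to 0.48 when each array was left out; *Hrnr* was 0.47 with the *Gapdh* covariate, 0.59 with replicate 3 alone and -1.19 to 0.04; *Ivl* was -0.22 and -0.33 under the same, -0.07 as the mean of its sets and -0.03 to 0.44. In *Ahr*+/- skin, *Flg* was -0.15 with the *Gapdh* covariate and -0.27 to 0.99, *Lce1a1* -1.06 to 0.03, *Lce1d* -1.22 to 0.06, and *Lce1f* -0.02 with the hair covariate. On day 2 *Tgm1* was -0.09 with the *Gapdh* covariate and -0.32 with replicate 3 alone.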
